A study of Homo sapiens with 12 samples.

Results

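The genes described here are 5 neutrophil-attracting CXC chemokines (CXCL1, CXCL2, CXCL3, CXCL5 and CXCL8) and 3 cytokines of the IL6 family (IL6, IL11 and LIF). They are 8 of the 58676 genes in the deposited expression table, found by gene name, each on 1 row. They were put together because IL11, CXCL1 and CXCL3 had been seen to respond differently to bortezomib in knockout lines. That difference in response is therefore given below as a description, without a test. The cells were A549, an established human lung carcinoma line, in 3 versions: a control line (Control1) and 2 lines labelled as NFE2L1 knockouts, called KO1 and KO2. Each line received DMSO vehicle or 200 nM bortezomib for 4 h, which makes 6 groups of 2 libraries and 12 libraries in all. KO1 and KO2 are 1 line each, so a difference between a knockout line and the control line cannot be told apart from a difference between lines. The labels do not say whether the 2 libraries of a group came from separate cultures, so the spread between them may be technical.

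Bortezomib blocks the proteasome, the protease that destroys ubiquitin-tagged proteins, and NFE2L1 is a transcription factor that induces the genes of proteasome subunits once that protease is blocked. The CXC chemokines of this group signal through the receptors CXCR1 and CXCR2 on neutrophils, and epithelial cells make them within hours of a stress or of an IL1 or TNF signal. Their promoters carry binding sites for NF-kappaB, a transcription factor held inactive by inhibitors that the proteasome removes. IL6 and IL11 bind a private receptor chain (IL6R or IL11RA), and LIF binds LIFR. IL6, IL11 and LIF all signal through the shared chain gp130, encoded by IL6ST, to JAK kinases and STAT3. Their mRNAs, like those of the chemokines, are short-lived.

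The 5 chemokine genes lie within 359 kb on chromosome 4. In the deposited coordinates, which match GRCh38, CXCL8 (ENSG00000169429) spans 73740506 to 73743716 and CXCL1 (ENSG00000163739) 73869393 to 73871242, both on the plus strand. CXCL5 (ENSG00000163735, 73995642 to 73998779), CXCL3 (ENSG00000163734, 74036589 to 74038807) and CXCL2 (ENSG00000081041, 74097035 to 74099293) follow on the minus strand. IL6 (ENSG00000136244) spans 22725884 to 22732002 on the plus strand of chromosome 7. IL11 (ENSG00000095752) spans 55364389 to 55370463 on the minus strand of chromosome 19, and LIF (ENSG00000128342) 30240447 to 30246851 on the minus strand of chromosome 22.

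RefSeq promoters (GRCh38.p14, 250 bases before to 50 after the start of the gene, read 5′ to 3′ on the gene's strand) were matched for 7 of the 8 genes, LIF being the exception. The 5 chemokine promoters and that of IL11 are shown because the chemokines shared a motif and IL11 did not have it. Capitals mark the 9-base kappaB sequence GGAATTTCC and, in CXCL8 and IL11, an AP-1 match, TGACTCA or TGAGTCA. The windows are chr4:73869143-73869442 (plus strand), chr4:74099146-74099445 (minus strand), chr4:74038640-74038939 (minus strand), chr4:73998628-73998927 (minus strand), chr4:73740319-73740618 (plus strand) and chr19:55370414-55370713 (minus strand).
CXCL1: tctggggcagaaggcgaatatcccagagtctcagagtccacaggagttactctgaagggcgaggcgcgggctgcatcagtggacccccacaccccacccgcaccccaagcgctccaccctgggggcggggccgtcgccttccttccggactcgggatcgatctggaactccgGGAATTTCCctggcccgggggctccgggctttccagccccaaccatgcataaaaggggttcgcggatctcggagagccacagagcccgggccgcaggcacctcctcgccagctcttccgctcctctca
CXCL2: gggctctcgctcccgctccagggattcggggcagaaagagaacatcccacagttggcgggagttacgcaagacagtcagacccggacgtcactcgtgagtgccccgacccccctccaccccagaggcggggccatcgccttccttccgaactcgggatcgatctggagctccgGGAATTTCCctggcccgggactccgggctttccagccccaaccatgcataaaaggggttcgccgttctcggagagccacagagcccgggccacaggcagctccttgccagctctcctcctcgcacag
CXCL3: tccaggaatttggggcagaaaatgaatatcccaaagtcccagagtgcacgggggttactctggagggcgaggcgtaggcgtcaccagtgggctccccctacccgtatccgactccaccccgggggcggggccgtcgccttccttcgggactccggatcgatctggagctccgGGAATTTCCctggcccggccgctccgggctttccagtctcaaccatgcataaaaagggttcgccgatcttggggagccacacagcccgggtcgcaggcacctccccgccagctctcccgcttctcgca
CXCL5: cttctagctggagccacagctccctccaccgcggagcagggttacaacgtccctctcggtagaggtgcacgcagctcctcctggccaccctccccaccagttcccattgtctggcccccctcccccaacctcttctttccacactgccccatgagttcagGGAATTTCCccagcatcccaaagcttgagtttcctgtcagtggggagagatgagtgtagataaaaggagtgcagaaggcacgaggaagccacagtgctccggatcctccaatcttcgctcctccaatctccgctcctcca
CXCL8: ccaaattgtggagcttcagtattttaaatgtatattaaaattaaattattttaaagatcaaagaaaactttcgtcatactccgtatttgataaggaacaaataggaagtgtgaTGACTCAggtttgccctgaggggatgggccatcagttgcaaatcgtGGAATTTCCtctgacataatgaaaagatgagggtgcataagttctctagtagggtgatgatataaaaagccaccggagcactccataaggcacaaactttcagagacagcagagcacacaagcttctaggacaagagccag
IL11: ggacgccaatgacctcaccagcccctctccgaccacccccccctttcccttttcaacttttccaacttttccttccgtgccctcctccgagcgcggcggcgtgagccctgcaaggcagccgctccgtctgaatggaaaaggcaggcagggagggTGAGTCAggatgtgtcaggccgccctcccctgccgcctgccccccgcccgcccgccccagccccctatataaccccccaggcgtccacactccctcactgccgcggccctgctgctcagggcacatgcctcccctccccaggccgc
Searched on both strands, GGAATTTCC was present in all 5 chemokine promoters, 77 to 91 bases before the start, and in neither IL6 nor IL11. Only this exact sequence was searched, so its absence does not show that IL6 or IL11 lacks a kappaB site of another form. The IL6 window holds the similar stretch GGGATTTTCC, which the search did not count. Of all 35116 RefSeq promoters of this length, 0.461% hold GGAATTTCC. The AP-1 motif TGANTCA was found 137 bases before the start of CXCL8 and 96 bases before that of IL11, and is in 7.71% of promoters. The core of the antioxidant response element, TGACNNNGC, to which NFE2L1 and its relatives bind, was in none of the 7 windows and is in 13.35% of all promoters. None of these matches overlapped another. The promoters of CXCL1, CXCL2 and CXCL3 were 83.6% to 87.0% identical over aligned bases in the 3 pairs, whereas CXCL5 and CXCL8 shared 54.1% to 65.9% with them and with each other. A match describes the letters and is not evidence of binding.

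Levels are in FPKM, a read count scaled to the length of the gene and to the total of reads assigned to genes, and log2 changes are of log2(FPKM + 1). The libraries held 13211608 to 23819258 reads recovered from the FPKM. Mitochondrial genes took 5.44% to 6.80% of the reads in the 6 libraries whose title ends in R1 or in no replicate suffix, and 12.3% to 19.3% in the 6 ending in R2. Differences between the R2 library and its partner were shared by the groups (Pearson's r across genes 0.70 to 0.89 over 15 pairs of groups, median 0.81). The suffix therefore pairs the libraries, and a fit with this replicate block is given beside the fit without it wherever it changes a call of the 8 genes. In each list of values the library with R1 or no suffix comes first and R2 second. Averaged over the 6 groups, the R2 libraries were higher in all 7 of the genes that passed the filter. The difference was 0.39 (CXCL3) to 1.16 (CXCL8) on the log2 scale after group means were removed, against a median of -0.21 over all genes. It was not the same in each group. With vehicle the R2 library was lower in KO1 for CXCL3 (-0.40), CXCL8 (-0.07) and IL11 (-0.33), and in KO2 for IL11 (-0.20). The block, which fits a common shift, does not describe these groups well for these genes. NFE2L1 was lower in both knockout lines, at 8.45 and 14.8 FPKM in KO1 and 18.6 and 33.6 in KO2 with vehicle, against 72.7 and 151 in the control line. Averaged over treatments its log2 change was -2.64 in KO1 (SE 0.37, limma adjusted p = 0.00941) and -1.87 in KO2 (SE 0.37, limma adjusted p = 0.0647, or 1.58e-05 with the replicate block).

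The epithelial markers EPCAM, KRT8, KRT18, KRT19, CDH1 and AKR1B10 each had a mean over 1 FPKM, while SFTPB, SFTPC and NKX2-1 were under 1 FPKM in every library. Of 6 endothelial markers all were under 1 FPKM in every library, as were 6 of 8 leukocyte markers, among them PTPRC. KRT19 averaged 14.7 FPKM with vehicle in the control line, 114 in line KO1 and 125 in line KO2, and KRT8 209, 337 and 571. The other leukocyte markers, CD14 and ITGAM, had group means that differed between the treatments in opposite directions. CD14 averaged 2.75, 2.96 and 1.46 FPKM with vehicle (control, KO1, KO2) and 0.465, 0.588 and 0.168 with bortezomib, and ITGAM 0.752, 2.08 and 1.25 against 1.63, 3.70 and 3.85. Of 6 fibroblast markers 4 were under 1 FPKM everywhere, and COL1A1 made most of the sum, which was 1.97 to 6.06 FPKM in vehicle and 6.26 to 24.3 with bortezomib. The part of these markers in the results below was not tested.

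With bortezomib, CXCL1, CXCL2, CXCL3 and CXCL8 rose, averaged over the 3 lines, by 2.06 to 2.82 on the log2 scale, while CXCL5 and IL11 did not pass the test. LIF fell, but was called only once the libraries were paired. Of the 8 genes, 7 passed the filter of a mean of at least 1 FPKM, and 4 of them were called without the block, all higher, where 11.6% of all 12194 genes tested were called (4.85% higher). With the replicate block 5 were called, 4 higher and 1 lower, where 54.9% of all genes were (27% higher). This average gives each line equal weight, but 2 of the 3 lines are knockout lines, whose responses were part of the choice of IL11, CXCL1 and CXCL3. For CXCL3 the response was 0.47 in the control line, 3.39 in line KO1 and 2.32 in line KO2. The calls of CXCL1 and CXCL3 are therefore not free of that choice.

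CXCL1 (GRO-alpha) is a ligand of CXCR2. With vehicle its level was 1.17 and 7.01 FPKM in the control line, 9.28 and 11.6 in line KO1 and 1.90 and 3.93 in line KO2. With bortezomib it was 4.33 and 14.8 in the control line, 119 and 291 in line KO1 and 12.7 and 28.4 in line KO2. Each bortezomib library was above the vehicle library with the same suffix, and the KO1 bortezomib libraries were above the 10 others. Within suffixes the ratio of bortezomib to vehicle was 3.72 and 2.10 in the control line, 12.9 and 25.0 in line KO1 and 6.68 and 7.22 in line KO2. Averaged over lines the log2 change was 2.53 (SE 0.43, limma adjusted p = 0.00632).

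CXCL2 (MIP-2-alpha), the neighbour and close paralog, gave the largest average change of the 7 genes tested, except that voom with the replicate block put CXCL8 just above it (3.12 against 3.11). It measured 2.13 and 6.49 FPKM in the control line, 7.88 and 10.4 in line KO1 and 2.01 and 2.94 in line KO2 with vehicle. Bortezomib libraries had 11.3 and 20.7 FPKM in the control line, 105 and 192 in line KO1 and 20.4 and 28.6 in line KO2. Vehicle and bortezomib libraries did not overlap, across lines included. The average log2 change was 2.82 (SE 0.29, limma adjusted p = 0.000792). CXCL2 was not among the genes that prompted the grouping, so each line was tested: 1.76 in the control line (SE 0.50), 3.83 in line KO1 and 2.87 in line KO2. KO1 alone was called without the block (limma adjusted p = 0.0171, the only call among the 4 of CXCL2, CXCL5, CXCL8 and LIF, where 0.238% of all genes were called), and lost the call when any 1 of the 4 KO1 libraries was left out (limma adjusted p 0.106 to 0.174). No gene of these 4 was called in the control line (1 at an unadjusted p under 0.05, voom 0, where 0.467% of all genes were) or in KO2 (2 at an unadjusted p under 0.05, voom 0, where 0.32% were), and CXCL2 stood at limma adjusted p = 0.165 and 0.0528, although KO2 was called without the control vehicle R2 library (limma adjusted p = 0.048). With the replicate block CXCL2, CXCL8 and LIF were called in each line, against a share of all genes called of 32.5% (control line), 27.9% (KO1) and 27% (KO2; for CXCL2 limma adjusted p = 0.000329, 6.97e-06 and 3.39e-05).

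CXCL3 (GRO-gamma) was the lowest of the 3 paralogs. Its vehicle level was 0.965 and 3.20 FPKM in the control line, 5.26 and 3.74 in line KO1 and 0.753 and 1.36 in line KO2. Bortezomib gave 2.15 and 4.02 in the control line, 52.8 and 59.8 in line KO1 and 7.94 and 10.5 in line KO2. In the control line the vehicle and bortezomib libraries overlapped, and in both knockout lines they did not. The within-suffix ratio was 2.22 and 1.25 in the control line, 10.0 and 16.0 in line KO1 and 10.5 and 7.71 in line KO2. Averaged over lines the log2 change was 2.06 (SE 0.23, limma adjusted p = 0.00108). CXCL1, CXCL2 and CXCL3 share 50-base stretches with each other over 4.81%, 12.5% and 6.01% of their transcripts, so a small share of their reads could be assigned to the wrong one.

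CXCL8 (IL8) is the main human ligand of CXCR1. It was measured at 0.425 and 3.53 FPKM in the control line, 5.89 and 5.57 in line KO1 and 1.53 and 1.92 in line KO2 with vehicle. Bortezomib brought 3.03 and 13.5 FPKM in the control line, 34.3 and 142 in line KO1 and 8.40 and 22.3 in line KO2. The R2 library stood well above its partner in all 3 bortezomib groups, and within suffixes the ratio to vehicle ran from 3.84 in the control line to 25.5 in KO1, both for R2. The average log2 change was 2.48 (SE 0.47, limma adjusted p = 0.0109). By line it was 1.59 in the control line, 3.40 in line KO1 and 2.44 in line KO2, with no call without the block (limma adjusted p = 0.492, 0.15 and 0.333). All 3 were called with the replicate block (limma adjusted p = 0.0234, 0.000779 and 0.00406), but the control line lost the call without its vehicle library of either suffix or its bortezomib R2 library (limma adjusted p 0.0542 to 0.164).

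CXCL5 (ENA-78), a CXCR2 ligand, had the highest FPKM of the 8 genes in each of the 12 libraries. Unlike the other 4 chemokines it was not called for bortezomib in the fits with and without the replicate block. However, 2 of 14 alternative settings that kept all libraries called it as lower, voom with the block among them. The difference from the other chemokines was not tested. With vehicle it stood at 47.5 and 201 FPKM in the control line, 369 and 513 in line KO1 and 71.4 and 160 in line KO2. Levels with bortezomib were 34.7 and 73.2 FPKM in the control line, 327 and 361 in line KO1 and 95.3 and 112 in line KO2. Of the 6 suffix-matched pairs 5 were lower with bortezomib, the KO2 R1 pair being the exception. The average log2 change was -0.44 (SE 0.41, limma adjusted p = 0.552), and it missed the threshold with the replicate block too (SE 0.22, limma adjusted p = 0.115). Without the unsuffixed control vehicle library the blocked change was -0.69 and passed (limma adjusted p = 0.00688). No single line was called in either fit, but 2 of the 14 alternative settings called the control line, voom with the block among them.

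**Figure D1:**
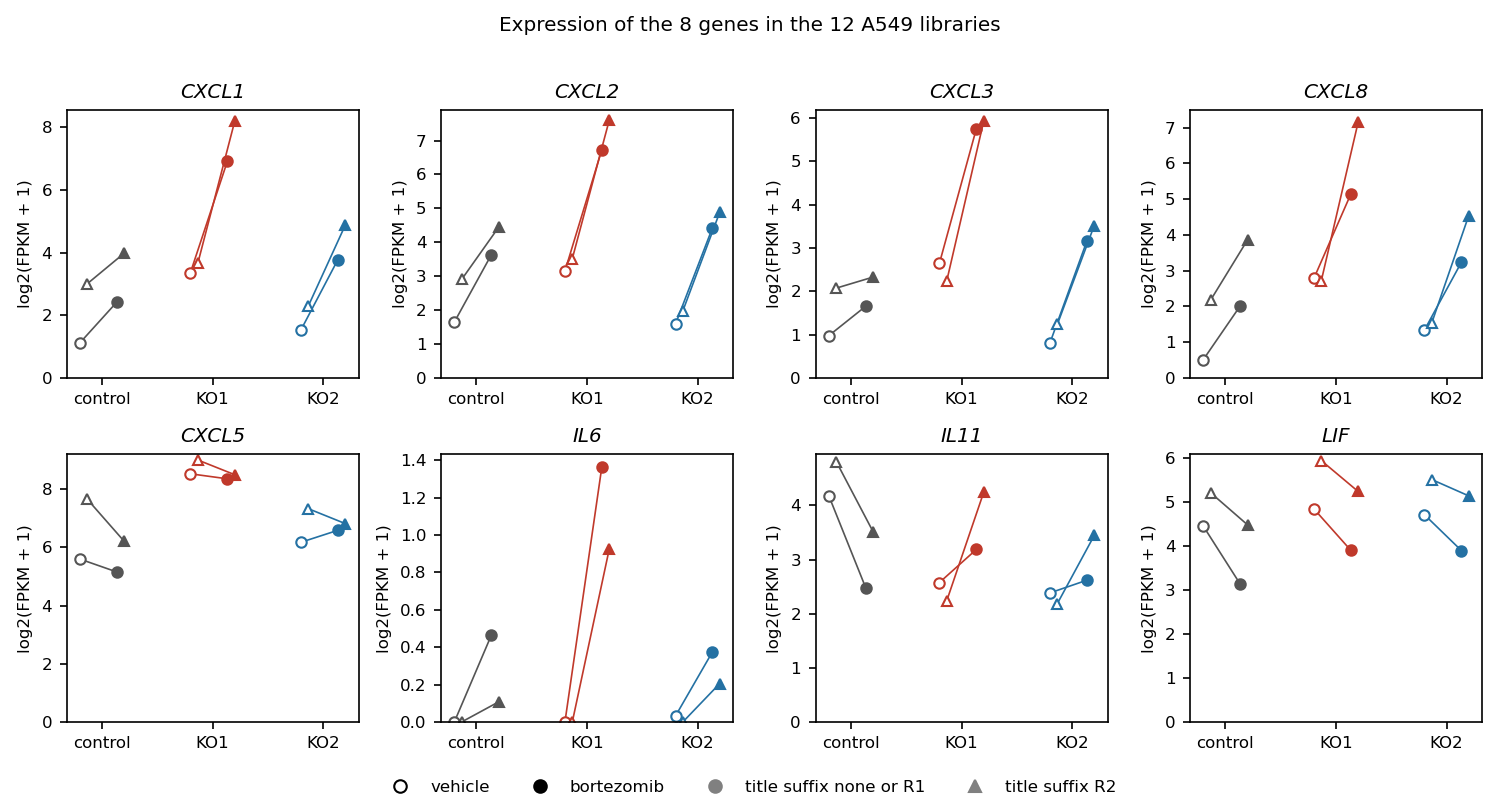
Each panel plots log2(FPKM + 1) of 1 gene (vertical axis, from 0, scaled per gene) in the 3 lines, with open symbols for vehicle, filled symbols for bortezomib, circles for title suffix R1 or none and triangles for R2; lines join libraries of 1 line and suffix. CXCL1, CXCL2, CXCL3 and CXCL8 were higher in each bortezomib library than in its vehicle partner and highest in KO1, and CXCL5 was highest in KO1 under both treatments. IL11 had its highest group mean in the control line with vehicle, although the KO1 bortezomib R2 library lies above the unsuffixed control vehicle library.

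The make-up of the chemokine mRNA differed between the treatments. CXCL5 was 90.8% to 94.2% of the summed FPKM of the 5 chemokines in the 6 vehicle libraries and 34.6% to 65.8% in the 6 bortezomib libraries, so the treatments did not overlap. The sum was 52.2 to 544 FPKM with vehicle and 55.5 to 1045 with bortezomib, with the upper end of both in KO1 and the lower end of both in the control line. These shares rest on FPKM, which is per length, and describe relative mRNA level only.

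**Figure D2:**
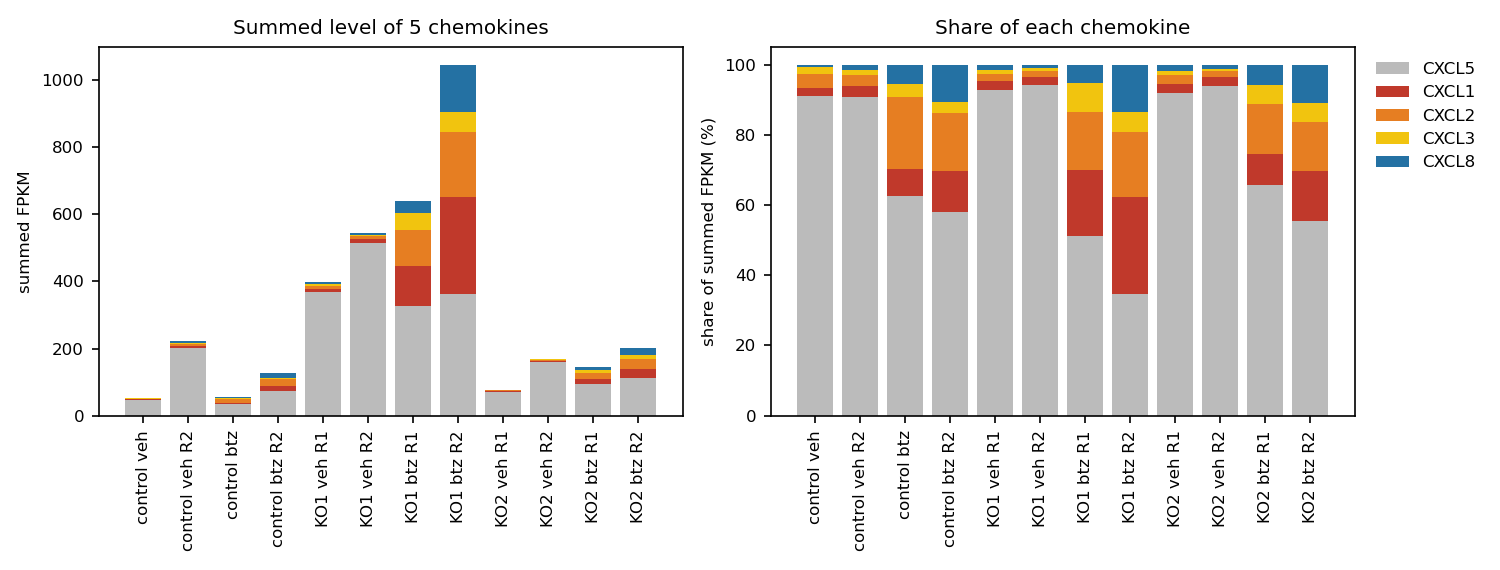
Stacked bars give the summed FPKM of the 5 chemokines (left, from 0) and the percent that each contributes (right) in the 12 libraries, with veh for vehicle and btz for bortezomib. CXCL5 (grey) makes 90.8% to 94.2% of the sum with vehicle and 34.6% to 65.8% with bortezomib, and the KO1 bars are the tallest under both treatments.

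IL11, a cytokine that acts through IL11RA and gp130 on stromal and epithelial cells, was the gene whose response differed in direction. With vehicle it was at 17.1 and 27.1 FPKM in the control line, 4.96 and 3.73 in line KO1 and 4.22 and 3.56 in line KO2. The control libraries were 3.45 and 7.27 times as high as those of KO1 with the same suffix, and 4.05 and 7.62 times as high as those of KO2. With bortezomib the levels were 4.58 and 10.4 FPKM in the control line, 8.10 and 17.9 in line KO1 and 5.14 and 9.90 in line KO2, and the 3 lines overlapped. Control libraries were thus 3.74 and 2.60 times lower with bortezomib than with vehicle, while those of KO1 were 1.63 and 4.80 times higher and those of KO2 1.22 and 2.78 times higher. On the log2 scale the response was -1.50 in the control line, 1.30 in line KO1 and 0.75 in line KO2. These responses chose the gene and carry no test. Ordered by mean level, the control line with vehicle came first (22.1 ± 7.07 FPKM, SD, n = 2), followed by KO1 with bortezomib (13.0 ± 6.94), KO2 with bortezomib (7.52 ± 3.36) and the control line with bortezomib (7.51 ± 4.14). KO1 with vehicle (4.35 ± 0.871) and KO2 with vehicle (3.89 ± 0.471) were last. The libraries of KO1 with vehicle and KO2 with vehicle overlapped, as did those of the 3 bortezomib groups, and the KO1 bortezomib R2 library also reached the range of the control line with vehicle.

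The opposite directions cancelled in the average over lines, where the log2 change of IL11 was 0.18 (SE 0.28, limma adjusted p = 0.737, and 0.432 with the replicate block). The libraries on which IL11 was chosen also enter its average over treatments, and KO2 was clearly below the control line only with vehicle. The ratio of KO2 to control was 0.247 and 0.131 with vehicle, and 1.12 and 0.948 with bortezomib. Averaged over treatments, IL11 was lower in KO2 than in the control line by a log2 change of -1.09 (SE 0.34, limma adjusted p = 0.354). This was called with the replicate block (SE 0.23, limma adjusted p = 0.0124), but not without the control bortezomib R2 library (limma adjusted p = 0.0521) or the KO2 vehicle R2 library (0.066). For KO1 the change was -0.69, which voom with the replicate block called but limma did not in either fit (limma adjusted p = 0.659 and 0.0629). With the block it passed once the KO1 vehicle R1 library was left out (limma adjusted p = 0.0226).

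LIF, which signals through LIFR and gp130, had a lower level with bortezomib, against the direction of CXCL1, CXCL2, CXCL3 and CXCL8. It was at 20.9 and 36.1 FPKM in the control line, 27.8 and 60.6 in line KO1 and 25.2 and 44.7 in line KO2 with vehicle. After bortezomib these were 7.79 and 21.4 FPKM in the control line, 14.0 and 36.9 in line KO1 and 13.9 and 34.3 in line KO2. All 6 suffix-matched pairs were lower with bortezomib, at 0.373 to 0.768 of the vehicle level, although the R2 bortezomib libraries exceeded the R1 or unsuffixed vehicle libraries in each line. The average log2 change was -0.81 (SE 0.40, limma adjusted p = 0.228), and LIF fell by 0.81 with the replicate block (SE 0.10, limma adjusted p = 0.000113). By line the blocked changes were -1.02 in the control line, -0.82 in line KO1 and -0.59 in line KO2 (limma adjusted p = 0.0023, 0.00798 and 0.0334, against 0.656, 0.84 and 0.93 without the block). The KO2 call was lost without any 1 of the 4 KO2 libraries (limma adjusted p 0.0535 to 0.268) and the KO1 call without its bortezomib R1 library (0.0808). The genes AC004264.1, at up to 7.19 FPKM, and LIF-AS1, at most 0.721 FPKM, overlap LIF on the opposite strand. Whether reads were counted by strand is not given in the sources used here, so their reads cannot be told apart from those of LIF in the overlap.

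IL6 was barely detected. It was at 0 in both vehicle libraries of the control line and of KO1, and at 0.0224 and 0 FPKM in KO2. With bortezomib it was 0.378 and 0.077 FPKM in the control line, 1.57 and 0.896 in line KO1 and 0.296 and 0.153 in line KO2. Each of the 6 bortezomib libraries was above its vehicle partner. Against a floor of 3 reads in the vehicle library, KO1 was at least 15.1-fold and 11.5-fold higher with bortezomib, and the control line at least 6.21-fold higher in the unsuffixed pair. The control R2 bortezomib library held 3 reads, which is that floor, so no fold is given. In KO2 the R2 pair was at least 2.03-fold higher, and the R1 pair held 12 reads with bortezomib and 1 with vehicle. With a mean of 0.283 FPKM the gene failed the filter. It would pass a filter of 0.1 FPKM only through the libraries in which it was high, so no test is given. The 2 genes that overlap IL6, STEAP1B and AC073072.1, were at 0.093 FPKM or less.

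**Figure D3:**
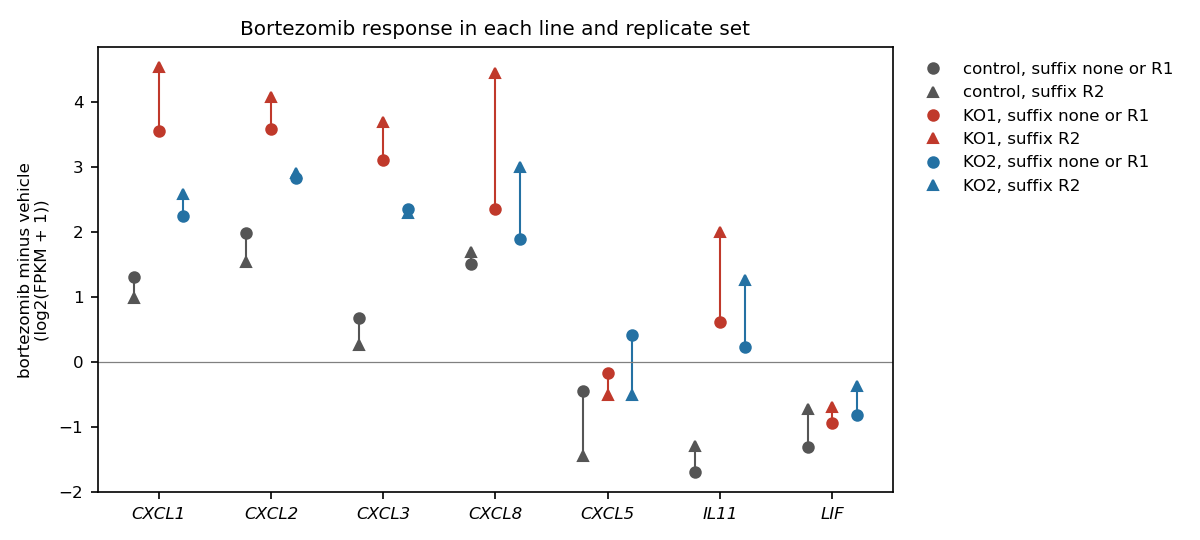
Points give the bortezomib response, the difference in log2(FPKM + 1) between the bortezomib and the vehicle library of 1 suffix (vertical axis), for 7 genes in the 3 lines (colours); circles are suffix R1 or none, triangles R2, and vertical bars join both pairs of a line. For IL11 both control pairs lie under 0 and the 4 knockout pairs above it, and for CXCL1, CXCL2, CXCL3 and CXCL8 the knockout pairs lie above the control pairs.

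Set side by side, the response in KO1 minus that in the control line was 2.90 for CXCL1, 2.07 for CXCL2, 2.93 for CXCL3, 1.81 for CXCL8 and 2.80 for IL11 on the log2 scale. In KO2 the same differences were 1.27, 1.11, 1.85, 0.85 and 2.24. For CXCL5 they were 0.60 and 0.89, and for LIF 0.20 and 0.43. All were above 0, and both columns share the control libraries. They are given without a test because the group of genes was chosen on them.

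Averaged over vehicle and bortezomib, CXCL1, CXCL2 and CXCL3 were higher in KO1 than in the control line. Their log2 changes were 2.90 (SE 0.53, limma adjusted p = 0.0371), 2.09 (SE 0.36, limma adjusted p = 0.0274) and 2.38 (SE 0.28, limma adjusted p = 0.00455). These 3 of the 7 genes that passed the filter were called, where 0.976% of all genes were (0.459% higher). CXCL1 and CXCL3 were among the genes chosen for their response in the knockout lines, so this count is not free of that choice. The ratio of KO1 to control was larger with bortezomib than with vehicle. It was 27.5 and 19.7 against 7.96 and 1.66 for CXCL1, and 24.6 and 14.9 against 5.45 and 1.17 for CXCL3. For CXCL2 it was 9.27 for either suffix against 3.70 and 1.61. With the replicate block 6 of the 7 genes were called, all higher, where 20.9% of all genes were (10.7% higher). The added genes were CXCL5 at 2.44 (limma adjusted p = 0.0613 without and 0.000259 with the block), CXCL8 at 2.31 (0.132 and 0.000985) and LIF at 0.66 (0.939 and 0.00484). Leaving out libraries changed the calls without the block. CXCL3 kept its call without any 1 of the 12 libraries. CXCL1 kept it only without the R2 library of the control line in vehicle or bortezomib (limma adjusted p = 0.0313 and 0.0464, against 0.0547 to 0.14 without any other library). CXCL2 lost it without the unsuffixed control libraries, the control bortezomib R2 library, either KO1 vehicle library, the KO1 bortezomib R2 library or the KO2 bortezomib R1 library (limma adjusted p up to 0.118). CXCL5 was called without the control vehicle R2 library (limma adjusted p = 0.0272).

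In KO2 none of the 7 genes was called against the control line by limma without the block, where 0.574% of all genes were. IL11 alone had an unadjusted p under 0.05, and voom on recovered reads also called 0. The log2 changes of the chemokines were 0.49 for CXCL1 (SE 0.53), 0.07 for CXCL2 (SE 0.36), 0.42 for CXCL3 (SE 0.28), 0.57 for CXCL5 (SE 0.50) and 0.52 for CXCL8 (SE 0.58). For CXCL2 the sign depended on the scaling, being -0.00272 after median ratio scaling. With the replicate block IL11 and LIF were called, in opposite directions, where 14.5% of all genes were. LIF was higher by 0.50 (limma adjusted p = 0.0266), a call lost without 1 of 4 libraries: control vehicle R2, control bortezomib without suffix, KO2 vehicle R1 or KO2 bortezomib R2 (limma adjusted p 0.0908 to 0.121). A replicate block of 3 levels (no suffix, R1, R2) also ended it (limma adjusted p = 0.0957), while IL11 stayed called (-1.34, limma adjusted p = 0.0251).

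The 2 knockout lines differed from each other in the chemokines. Averaged over treatments CXCL3 was higher in KO1 than in KO2 by 1.96 (SE 0.28, limma adjusted p = 0.0293). It was the only gene of the 7 called without the block, where 0.189% of all genes were, and it was not called once any 1 of the 8 knockout libraries was left out (limma adjusted p 0.0745 to 0.169). With the replicate block all 5 chemokines were called, where 8.36% of genes were. Their differences were 2.41 for CXCL1, 2.03 for CXCL2, 1.96 for CXCL3, 1.87 for CXCL5 and 1.78 for CXCL8 (limma adjusted p 7.32e-05 to 0.009). CXCL1 and CXCL3 were among the genes chosen for their response in knockout lines, whose libraries enter this comparison. The calls of CXCL1 and CXCL3 are therefore not free of that choice. IL11 and LIF did not pass, with differences of 0.40 and 0.17 (SE 0.23 and 0.13, limma adjusted p = 0.386 and 0.527 with the block).

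**Figure D4:**
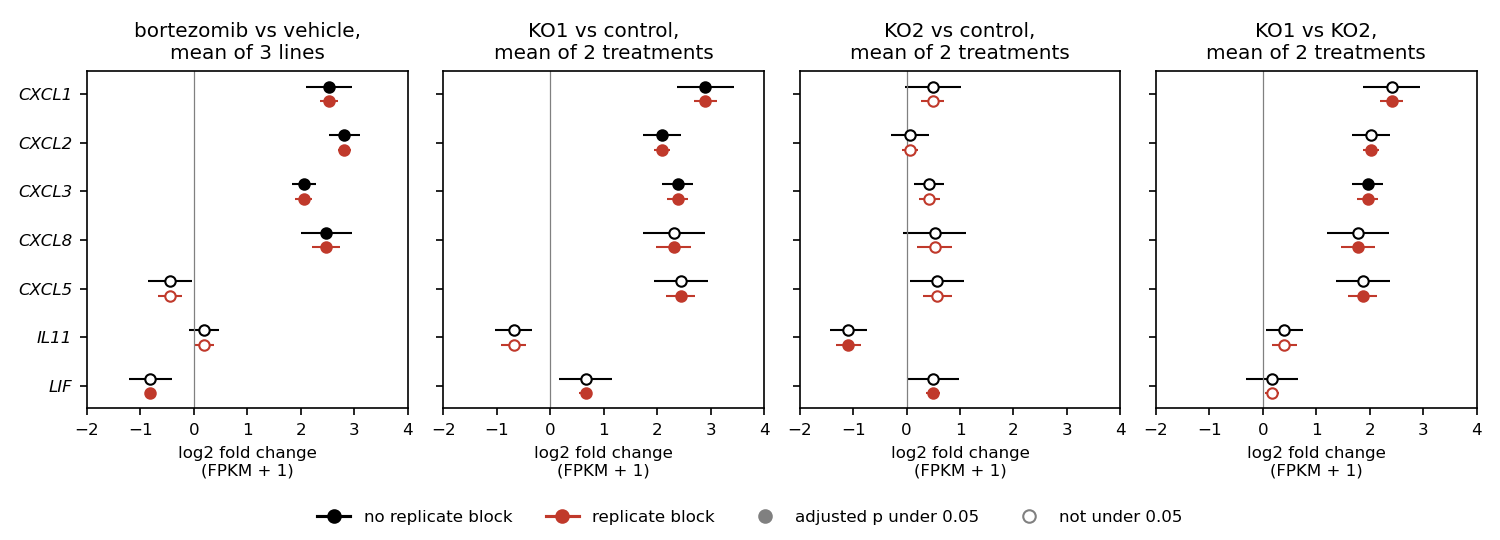
Points are log2 fold changes of FPKM + 1 with bars of 1 SE for 7 genes in 4 comparisons, without (black) and with (red) the replicate block; filled points passed an adjusted p of 0.05 over all genes. CXCL1, CXCL2, CXCL3 and CXCL8 lie at 2.06 to 2.82 for bortezomib, all 5 chemokines lie at 2.09 to 2.90 for KO1, and in KO2 they lie at 0.07 to 0.57 with open symbols.

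After the mean of the R2 libraries and that of the others were subtracted, CXCL1, CXCL2, CXCL3 and CXCL8 followed each other across the 12 libraries, with pairwise Pearson's r of 0.96 to 0.99. CXCL5 had an r of 0.38 to 0.55 with these 4, LIF -0.39 to -0.19, and IL11 -0.20 to 0.26 with the other 6 genes. The libraries share lines and treatments, so these values describe this set of groups. The non-member genes most like CXCL1 were ELP2 (r = 0.98), SLC35C2 and FHL3 (both 0.97), and FHL3 was also among the 3 most like CXCL2 (0.96) and CXCL3 (0.97). For CXCL5 they were TNC (0.96), KDSR (0.96) and SIPA1L1 (0.96). IL11 had no equally close partner, its nearest being DUSP5 (0.92), TNNT1 (0.89) and BATF3 (0.88). For LIF they were METTL21B, PAN2 and GLI1 (all 0.97). Each r is over 12 libraries, and these partners were the closest picked from all genes tested. Without the subtraction the r of every named partner was lower, from 0.20 (TNNT1 with IL11) to 0.95 (TNC with CXCL5).

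Outside the group, CXCL16 (6.78 to 24.5 FPKM) and CCL2 (3.00 to 20.1 FPKM) were the listed chemokines with a mean over 1 FPKM, and neither was called for bortezomib with or without the block. Of the other CXC genes of the chromosome 4 cluster, CXCL6, PPBP, PF4 and PF4V1, none reached a mean of 1 FPKM. PF4 (platelet factor 4), chosen for mention after its values were seen, was at 0 in all 4 control libraries, at 2.27 and 3.75 FPKM in KO1 with vehicle, 1.38 and 1.75 in KO1 with bortezomib, and 0.154 to 1.20 in KO2. It failed the filter, so no test is given. The receptors CXCR1 and CXCR2 were at 0 in 11 and 10 of the 12 libraries and never above 0.0986 FPKM. ACKR3, an atypical receptor that binds CXCL12, was at 2.00 to 3.37 FPKM in the 4 control libraries, 0 to 0.0939 in KO1 and 0.092 to 0.498 in KO2, so the control line did not overlap the knockout lines. It failed the filter too, so no test of it is given.

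The receptors of the IL6 family moved in both directions with bortezomib. Of 8 listed genes 6 passed the filter. Limma without the block called 0 (3 at an unadjusted p under 0.05, and 1 called by voom), against 11.6% of all genes. With the block 2 rose and 3 fell, where 54.9% of all genes were called. IL6R was lower (-1.01, limma adjusted p = 0.0513 without and 2.45e-05 with the block), as were IL27RA (-0.88) and IL11RA (-0.48), while OSMR (0.72) and LIFR (0.36) were higher. Without the block these 4 missed the threshold (limma adjusted p 0.12, 0.207, 0.179 and 0.22). IL6ST, the shared gp130 chain, was at 27.8 to 68.1 FPKM and did not pass (0.01, SE 0.10 with the block). The median of the 6 was -0.23, against -0.01 over all genes tested. In KO2 against the control line LIFR and OSMR were lower with the block (-0.68 and -0.51, limma adjusted p = 0.00514 and 0.00665, and neither was called without it). With the block 14.5% of all genes were called in that comparison. CLCF1 and EBI3, other ligands or ligand subunits of the family, were called in KO1 with the block, EBI3 higher (0.97, limma adjusted p = 0.0115, 0.315 without the block) and CLCF1 lower (-0.55, limma adjusted p = 0.0367, not called without the block). In KO1 against the control line 20.9% of all genes were called with the block. The CLCF1 call was kept without only 5 of the 12 libraries (limma adjusted p up to 0.147). It was lost without the control vehicle or bortezomib library that has no suffix, the control bortezomib R2, KO1 vehicle R1, KO1 bortezomib R1 or either KO2 vehicle library. The EBI3 call was lost without the KO1 vehicle R1 or the KO1 bortezomib R2 library (limma adjusted p up to 0.0538).

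Downstream, 1 of 10 tested JAK-STAT genes was called without the block, where 11.6% of all genes were. It was STAT5A, which rose by 0.94 (limma adjusted p = 0.00647). With the block 3 rose and 2 fell, where 54.9% of all genes were called. The same 11.6% and 54.9% stand against the counts below. STAT3, the main transcription factor of the family, fell by 0.34 with the block (limma adjusted p = 0.00349, 0.465 without it). Of 10 feedback genes PIAS3 (-0.87, limma adjusted p = 0.021) and SOCS5 (-0.68, 0.0235) fell and SOCS7 rose (0.59, 0.0433) without the block, and SOCS3, the classic STAT3-induced inhibitor of gp130, fell by 0.47 with it (limma adjusted p = 0.0107, 0.201 without). Of 11 tested STAT3 target genes 0 were called by limma without the block (4 at an unadjusted p under 0.05, and 1 called by voom), while with it 3 rose, namely VEGFA (0.93), MYC (0.76) and CEBPB (1.04), and 5 fell, CEBPD among them (-0.50). The median over these targets was -0.30.

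On the input side, 16 NF-kappaB genes were tested and 3 rose and 1 fell without the block, while 7 rose and 3 fell with it (median 0.22). RELB and NFKB2, which form the non-canonical dimer, rose by 1.40 and 0.91 (limma adjusted p = 0.0225 and 0.0313), and MAP3K14, the kinase upstream of them, fell by 0.83 (limma adjusted p = 0.022). With the block RELA rose by 0.73 (limma adjusted p = 0.000106, 0.108 without it) and NFKBIA, the inhibitor I-kappaB-alpha, fell by 0.50 (limma adjusted p = 0.0212, 0.243 without it). The receptor genes TNFRSF1A and IL1R1 fell by 1.51 and 1.39 (limma adjusted p = 0.028 and 0.00184), and the adaptor TRAF6 rose by 0.66 (limma adjusted p = 0.0257), the 3 calls among 9 tested genes of this input. The ligand mRNAs IL1B and TNF were at most 0.12 and 0.443 FPKM. Under the filter, and so given without a test, IL1A stood at 0 to 0.197 FPKM with vehicle and 0.234 to 0.962 with bortezomib. The receptor gene TLR2 was at 0.0172 to 0.115 against 0.265 to 0.582 FPKM, and neither gene overlapped between treatments. TNFRSF1B, also under the filter, was at 0.0446 to 1.03 against 0.488 to 2.66 FPKM. Of 12 genes for factors that act on cytokine mRNA stability, 0 were called by limma and by voom without the block (7 at an unadjusted p under 0.05), and 6 rose and 1 fell with it (median 0.36). They included ZC3H12A (regnase-1, 0.88), RC3H1 and RC3H2 (roquin genes, 0.77 and 0.81) and ZC3H12C (0.77), all decay factors. These shares of genes called stand against 11.6% of all genes without and 54.9% with the block, and the medians against -0.01.

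**Figure D5:**
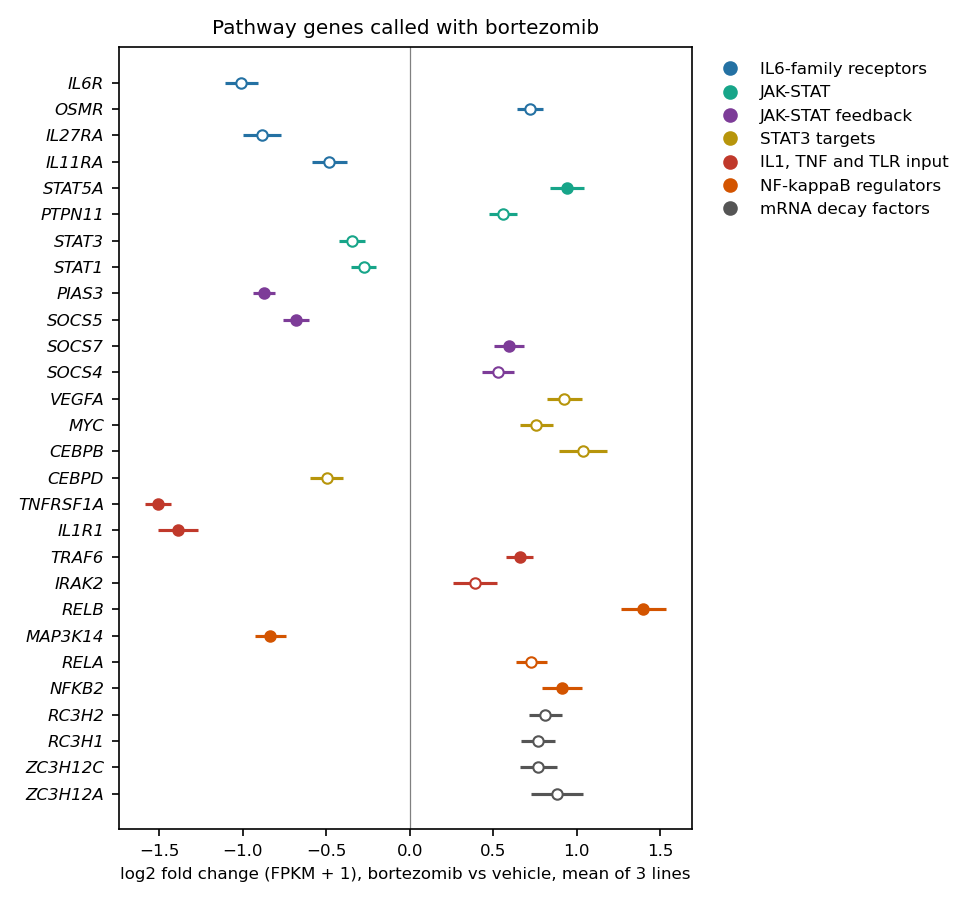
Points are log2 fold changes of FPKM + 1 for bortezomib against vehicle, averaged over 3 lines, for the 28 named pathway genes (at most 4 per list, those called with or without the block), with bars of 1 SE from the fit with the replicate block. Filled points were called without the block; TNFRSF1A and IL1R1 lie lowest at -1.51 and -1.39, and RELB highest at 1.40.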

How the data were processed

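RNA-seq was analysed from 1 deposited table of FPKM, which the authors made per gene, with a deposited gene length, an other unit in bases. Per the submitters' processing notes, CASAVA, STAR 2.5, HTSeq 0.6.1, DESeq2 and hg19 were named, but the deposited coordinates match GENCODE 29 (GRCh38) for 95.2% of the 58676 gene IDs. FPKM times length gave whole reads for 100% of values (within 0.05), at 13211608 to 23819258 reads per library.

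Groups came from the labels. Testing was limited to the 12194 genes (20.8%) whose mean FPKM reached 1, with limma 3.58.1 in R 4.3.3 (eBayes with trend) on log2(FPKM + 1), which understates changes of low genes. All 12 libraries entered 1 fit with 1 mean per group, p-values were Benjamini-Hochberg adjusted over all genes tested, and 0.05 was the threshold. The replicate block used the title suffix (R2 or not), since same-suffix libraries deviated together (median r 0.81, 15 pairs of groups). In the control groups the partner of R2 carries no suffix and was put with R1. Alternatives were another pseudocount, filter, scaling or block, voom on recovered reads, and each library left out. On simulated reads carrying the R2 shift of these libraries, with 200 of the 12194 genes changed 2-fold by bortezomib in all lines, the average over lines recovered 195 with the block (11 false calls) and 0 without it. The real data differed from this setting, since 1415 genes were called without the block and 6689 with it. The simulation therefore does not give the power or the false calls of either fit here. Within 1 line, 2 libraries against 2 are too few for an exact permutation test of 1 gene to reach the threshold. Intervals are not given for FPKM; a floor of 3 reads covers counting error only.

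The members and gene lists were chosen with earlier results of these data known. Named genes were the 8 members, NFE2L1, up to 4 called genes per list and comparison by smallest blocked p, and the 3 genes most like each member; others were chosen after their values were seen. Promoters were read from RefSeq tables with Python 3.11.15.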

Additional observations from a re-analysis of the deposited data

Results flagged for a closer look

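IL11 was picked out because its response to bortezomib went in opposite directions in the control line and in the knockout lines. Both suffix-matched control pairs were lower with bortezomib, and both pairs of KO1 and both of KO2 were higher. The response in KO1 minus that in the control line was 2.80 on the log2(FPKM + 1) scale, and that in KO2 minus the control line was 2.24. The difference was not tested, because the gene had been chosen for it.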

How the results depend on the processing

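Numbers here are how many of the 8 genes (5 for single lines) were called. The bortezomib average kept 4 calls in all 12 fits that left out 1 library, and 5 to 6 with the replicate block. For KO1 against control, 3 calls became 1 (filter above 0, quantile normalization, median ratio scaling), 6 with the replicate block in most forms and 7 (block with filter 0.1, which IL6 enters only through its high libraries, and voom with block). Leaving out 1 library gave 1 to 4, or 6 to 7 with the block. For KO2 against control, 0 became 1 (block of 3 levels) or 2 (other blocks; LIF is the call that the block of 3 levels lost), and 1 to 2 without 1 library. For KO1 against KO2, 1 became 0 (pseudocount 0.1, filter above 0, median ratio) and 5 with any block; without 1 library it was 0 to 1, or 5 with the block. Bortezomib in the control line went from 0 to 3, to 4 (block of 3 levels, voom with block) or to 2 (block with filter 0.1). In KO1 it went from 1 to 3, or 4 with filter 0.1. In KO2 it went from 0 to 3, or 2 with filter 0.1 or quantile normalization. IL6 enters filter 0.1 only through its bortezomib libraries, so the counts with that filter are not evidence of an IL6 response. Without 1 library these single-line counts were 0, 0 to 1 and 0 to 1, or 2 to 3 with the block. The cause was not tested. Pairing by suffix (median r 0.81) thus changed more calls than any other setting.

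The sign turned for CXCL2 in KO2 against control (0.07), at -0.00272 after median ratio scaling with and without the block, -0.19 with the block of 3 levels, -0.0197 with voom and the block, and -0.25 to 0.38 without 1 library (-0.10 to 0.24 with the block, among them -0.0262 and -0.00262). Without 1 library it also turned for CXCL5 with bortezomib in the control line (-1.97 to 0.0855), in KO1 with the block (-0.76 to 0.0878) and in KO2 (-0.63 to 0.53, block -0.42 to 0.32, among them 0.130), and for LIF between KO1 and KO2 (-0.17 to 0.50) and with bortezomib in KO2 (-1.21 to 0.0297). With bortezomib in the control line CXCL3 (0.47, untested) ran from -0.0813 to 1.02, the low end without the unsuffixed vehicle library. The differences in response between the mean of both knockout lines and control were above 0 for all 7 genes in each setting, but for 5 to 7 without 1 library and no block. No scaling moved the median of all genes by 0.1. Of the 28 pathway genes named for bortezomib, IRAK2 alone lost its blocked call when 1 library was left out, and without the block STAT5A and IL1R1 alone kept theirs in all 12 such fits. Low read numbers limit IL6 (at most 43 reads) and the unsuffixed control vehicle library for CXCL1 (36 reads) and CXCL8 (23 reads).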
